A study of Mus musculus with 2 samples.

Results

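Genes of antigen presentation, 9 in all, were followed in RNA of sorted CD69+ double-positive (DP) thymocytes: H2-Aa, H2-Ab1, H2-Eb1, Cd74, H2-DMa, Ciita, Ctsl, Lyz2 and Cd79a. They were taken by name, as MHC class II genes and genes known from antigen-presenting cells, and all 9 of 9 were found by gene ID among the 24532 gene IDs of the deposited tables. The study has 2 libraries from C57BL/6 mice aged 6 weeks, 1 per genotype. The library labelled wild-type came from mice with floxed Nsrp1 alleles and no Cre, NSRP1f/f. The library labelled KO came from mice with the same alleles and CD4-Cre, NSRP1f/fCD4Cre, in which the recombinase is driven in cells that use the Cd4 promoter, from the DP stage of T cells. The sources used here give neither the number of mice pooled nor the purity of the sort.

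Each genotype has 1 library, so nothing could be checked against replicates or tested, and each 95% interval below covers counting error only. Depth over the annotated transcripts came to 4199 megabases for the wild-type label and 5076 megabases for the KO label. Nsrp1, the targeted gene, stood at 29.7 and 29.6 TPM (transcript abundance scaled to length and library total), so its RNA level did not separate the labels, and every direction given here is between labelled libraries. The libraries also differed in the sex-linked genes Xist (201.8 and 76.3 TPM) and Ddx3y (31.1 and 71.2 TPM), so the mix of sexes cannot be told apart from the genotype. The sorting markers were high in both, with Cd8a at 1138 and 1151 TPM, Cd8b1 at 1377 and 1679 TPM, Cd4 at 725 and 663 TPM, Cd3e at 944 and 862 TPM and Cd69 at 430 and 522 TPM.

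MHC class II molecules are pairs of an alpha and a beta chain that show peptides from the endosome to CD4 T cells. They are made by thymic epithelium, dendritic cells, macrophages and B cells, while mouse T cell precursors are classically class II negative and meet these molecules on their neighbours during selection. The chains are assembled on the invariant chain, Cd74, which lysosomal cathepsins cut down before the H2-DM chaperone edits the peptide. Ciita is the coactivator that switches the set on, through an X box and a Y box that lie side by side upstream of class II genes.

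These boxes are shown because they are the known control elements of class II genes. The RefSeq promoter table of GRCm38.p6 (250 bases before to 50 bases after a start) held 6 of the 9 genes, and H2-Ab1, Cd74 and Ciita were not among them. The search was for GNAAC, the core of an X box, followed after 20 to 30 bases by ATTGG, the core of a Y box. Both strands were read, and the cores do not overlap. This spacing was chosen after promoters of these genes had been read. The pair was in H2-Aa and H2-Eb1, and in none of the windows of H2-DMa, Ctsl, Lyz2 and Cd79a. The H2-DMa windows end at 34122881 and 34125567, while exon 2 of the measured transcript starts at 34135182. Exon 1, which starts inside the first window, had depths scaled to TPM of 2.25 and 0 (wild-type and KO labels). Exon 3 had 43.5 and 59.1. The bases just before exon 2 were not read, so whether a start of H2-DMa in use here has the pair was not tested. In all, 629 of 32851 promoters of the same length (1.91%) held it, whereas ATTGG alone on either strand was in 37.4% and GNAAC alone in 84.8%. Beyond these members, the windows of H2-Eb2, H2-DMb1, H2-Oa and H2-Ob held the pair and that of H2-DMb2 did not. The H2-DMb2 window ends at 34145298, short of the start of the measured transcript at 34145416, so the bases just before that start were not read. The lines below give members H2-Aa and H2-Eb1, both lower under the KO label, then H2-DMb1, which was also lower, and H2-Oa, which was level. They read 5′ to 3′ on the gene's own strand in GRCm38, with the cores in capitals, and lie at chr17:34287855-34287916 (minus strand), chr17:34305764-34305824, chr17:34153085-34153146 and chr17:34092291-34092352 (plus strand).
H2-Aa: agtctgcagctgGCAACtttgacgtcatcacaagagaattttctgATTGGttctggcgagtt
H2-Eb1: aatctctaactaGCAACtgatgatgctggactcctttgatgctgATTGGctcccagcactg
H2-DMb1: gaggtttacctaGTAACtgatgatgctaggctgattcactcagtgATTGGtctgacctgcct
H2-Oa: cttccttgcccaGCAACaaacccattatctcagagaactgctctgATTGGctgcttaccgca
The cores are 28 bases apart in H2-Aa, H2-DMb1 and H2-Oa and 27 bases apart in H2-Eb1. A match is a description of letters and not of a site in use. The same pair stood before genes that were lower and before a gene that was level.

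The 3 classical chains had less RNA in the library labelled KO, by a similar factor, and so had Cd74. H2-Aa, the alpha chain of the I-A molecule (minus strand of chromosome 17 in mm10, 34282751 to 34287771), stood at 88.3 TPM (82.3 to 94.6) under the wild-type label and 63.4 TPM (59.0 to 68.1) under the KO label. Its partner H2-Ab1, the I-A beta chain (34263227 to 34269418 on the same chromosome), stood at 72.2 TPM (67.1 to 77.6) and 48.6 TPM (44.9 to 52.5). H2-Eb1, the I-E beta chain (34305867 to 34316674), stood at 55.6 TPM (51.9 to 59.6) and 36.7 TPM (34.0 to 39.6). For each of these 3 genes the counting interval of the ratio, KO label over wild-type label, lay below 1. Such differences were common at this depth. That interval lay below 1 for 35% and above 1 for 16.3% of genes with at least 1 TPM in either library. The level in the library labelled wild-type was 1.39-fold (1.26 to 1.54), 1.49-fold (1.34 to 1.65) and 1.52-fold (1.37 to 1.68) that in the library labelled KO, for H2-Aa, H2-Ab1 and H2-Eb1. Summed, the 3 chains stood at 216 and 149 TPM, a ratio of 1.45 (1.37 to 1.54), from 2365 and 2085 estimated read pairs. That sum was 19.0% of the TPM of Cd8a in the library labelled wild-type and 12.9% in the library labelled KO. In bulk RNA, fewer cells of a type and less RNA per cell cannot be told apart.

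The proportions among the chains were close in both libraries. TPM is scaled to the annotated length, so an annotated end with few reads lowers a gene's level beside others. By TPM, H2-Aa stood at 1.22 and 1.31 times the level of H2-Ab1, and H2-Eb1 at 0.770 and 0.756 times that level. Without the last exon, depth scaled to TPM was 78.0 and 51.5 for H2-Eb1. It was 70.0 and 47.0 for H2-Ab1, so the order of these genes turned in both libraries. H2-Ea, the alpha chain that pairs with H2-Eb1, was listed at 0 in both, where 3 read pairs would be 0.443 TPM in the library labelled wild-type. C57BL/6 mice are known to lack H2-Ea RNA through a promoter deletion. The fifth chain gene, H2-Eb2, was low, at 1.27 TPM (0.897 to 1.75) and 0.911 TPM (0.632 to 1.27), with intervals that overlap.

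**Figure D1:**
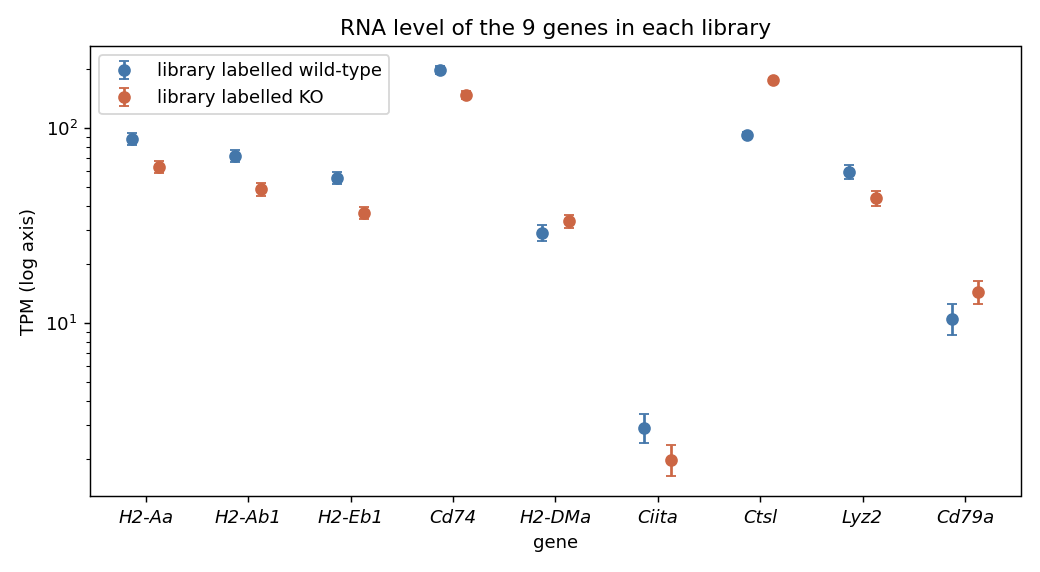
TPM of the 9 genes on a log axis, with a blue point for the library labelled wild-type and an orange point for the library labelled KO and bars for 95% counting intervals. The 3 chains, Cd74, Ciita and Lyz2 are lower in the library labelled KO, and H2-DMa, Ctsl and Cd79a are higher, with Ctsl going from 91.9 to 176 TPM.

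Among the loading genes, Cd74 was lower with the chains while H2-DMa was not. Cd74 (chromosome 18, 60803849 to 60812652 in mm10), the invariant chain, stood at 199 TPM (190.3 to 207) and 148 TPM (141 to 154), a ratio of 1.35 (1.27 to 1.43). By TPM, Cd74 was the most abundant of the 9 genes in the library labelled wild-type and stood at 0.919 and 0.993 times the summed level of the 3 chains. H2-DMa, the alpha chain of the peptide editor (chromosome 17, 34122832 to 34139101), stood at 28.9 TPM (26.2 to 31.9) and 33.3 TPM (30.7 to 36.0), 1.15-fold (1.01 to 1.31) higher in the library labelled KO with intervals that overlap. Its level relative to H2-Ab1 thereby went from 0.401 to 0.685. The beta chains of the editor pointed the other way. H2-DMb1 stood at 6.86 and 4.48 TPM and H2-DMb2 at 14.4 and 12.05 TPM, but 27.2% and 30.9% of their 50-base words occur in other genes, above all in each other, which leaves the share of each uncertain. Together they stood at 21.3 and 16.5 TPM, a ratio of 1.29 (1.04 to 1.60). The H2-O chaperone differed between its chains too, with H2-Oa at 78.7 and 82.0 TPM and H2-Ob at 23.6 and 19.7 TPM. Of the 6 loading genes, 4 lay below zero on the log2 scale and 2 above, a split near that of the 12029 genes that reached 1 TPM in either library, of which 61.5% lay below zero. The median log2 fold change was -0.25 for the loading genes and -0.07 for all genes.

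Counted over the 9 genes, 6 were lower and 3 higher in the library labelled KO, which is near the 61.5% lower and 38.5% higher of all genes, and none passed the rule of size used across all genes. Fold changes on the log2(TPM + 1) scale were -0.47 for H2-Aa, -0.56 for H2-Ab1, -0.59 for H2-Eb1, -0.43 for Cd74, -0.38 for Ciita and -0.44 for Lyz2. They were 0.20 for H2-DMa, 0.42 for Cd79a and 0.93 for Ctsl. A gene was called where the log2 fold change was 1 or larger in size, which took 0 of the 9 genes, against 79 genes higher (0.657%) and 165 lower (1.37%) of the 12029. By FPKM, all genes split into 51 higher and 50 lower, and Ctsl passed at 1.02. A weaker rule of 0.5, added after the values were seen, took H2-Ab1 and H2-Eb1 as lower and Ctsl as higher, against 6.42% lower and 3.37% higher of all genes. The interval of the ratio lay below 1 for 6 genes and above 1 for 3, but at this depth that was also so for 35% and 16.3% of all genes. The median log2 fold change of the 9 genes was -0.43.

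Every exon of H2-Aa, H2-Ab1 and H2-Eb1 and of the main Cd74 transcript had a lower depth in the library labelled KO, though not each beyond counting error. Exon depth was scaled to TPM, so that a ratio of 1 means the same level. Over the 25 exons of H2-Aa, H2-Ab1, H2-Eb1 and the shorter Cd74 transcript the ratio of the KO label to the wild-type label lay between 0.538 and 0.838. It was lowest in exon 1 of H2-Eb1 (64.8 and 44.9 read pairs) and highest in exon 4 of H2-Ab1 (62.6 and 67.6 read pairs). In H2-Aa the ratio ran from 0.661 to 0.805, in H2-Eb1 from 0.538 to 0.731 and in Cd74 from 0.671 to 0.823. The interval lay below 1 for 3 of 5 exons of H2-Aa, 4 of 6 of H2-Ab1, 4 of 6 of H2-Eb1 and 5 of 8 of Cd74. It included 1 for the rest. The difference of these genes thus did not rest on the last exon. A microRNA gene, Mir5107, overlaps the last exon of Cd74, and without that exon the log2 fold change of Cd74 was -0.44.

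**Figure D2:**
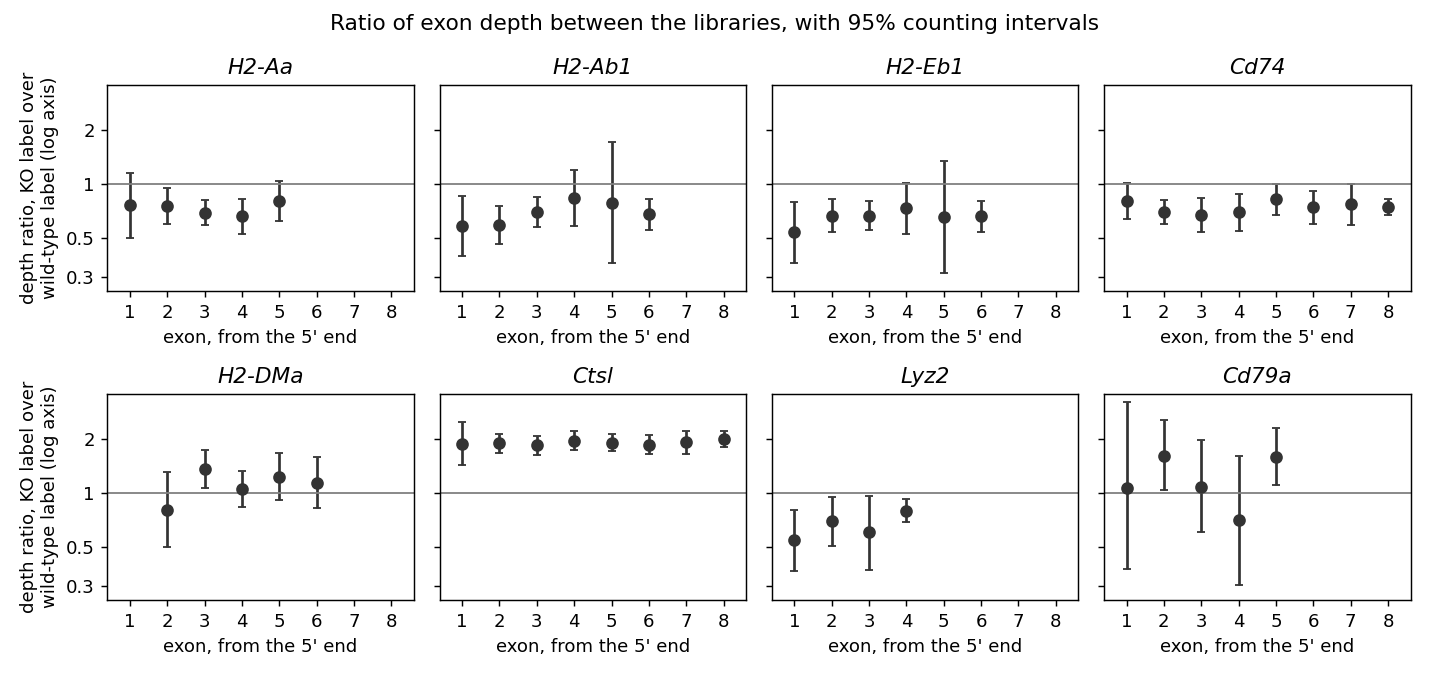
Exon depth under the KO label divided by that under the wild-type label, on a log axis against exon number from the 5′ end for 8 of the genes, with 95% counting intervals; Ciita is left out because most of its exons hold few read pairs. The points of all exons of H2-Aa, H2-Ab1, H2-Eb1, Cd74 and Lyz2 lie below 1, though some intervals include 1. Those of all 8 exons of Ctsl lie between 1.85 and 2.0.

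Cd74 has a longer transcript whose added exon encodes a cathepsin-binding domain, and the use of that exon was level. The added exon of 192 bases held 41.2 and 39.4 read pairs, at 24.8 and 18.4 TPM-equivalents. Relative to the mean of its neighbours, exons 6 and 8 of the longer form, that depth was 10.8% (7.77 to 14.7) under the wild-type label and 10.6% (7.57 to 14.5) under the KO label. The authors' split of TPM gave the longer transcript 14.9% and 12.4% of Cd74. That split draws on shared exons too, whereas the depth of the added exon is its own.

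Regulators of class II transcription other than Ciita were abundant and differed little. Ciita, the coactivator (chromosome 16, 10480072 to 10527640), stood at 2.89 TPM (2.42 to 3.42) and 1.99 TPM (1.65 to 2.38), a ratio of 1.45 (1.12 to 1.88) from 133 and 118 read pairs. It was the lowest of the 9 genes in both libraries. Its partners that bind the X and Y boxes were all at higher levels, among them Nfyc (110 and 115 TPM) and Nfyb (91.2 and 97.0 TPM), subunits of the factor that binds the Y box. Rfx5, which binds the X box, stood at 34.5 and 29.1 TPM. Of the 7 partners, 5 lay below zero and 2 above, between log2 fold changes of -0.24 and 0.09, with a median of -0.02. The sign of such small values turned with the scaling, since the median of this list with Ciita was -0.04 with TPM and 0.056 with FPKM.

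Ciita has alternative first exons, each known from other cells, and few reads fell on any of them. In genome order on chromosome 16, the first (10480072 to 10480426), used in dendritic cells, was listed at 0 in both libraries. The second (10488178 to 10488424), known from B cells and plasmacytoid dendritic cells, held 2.54 and 2.06 read pairs. The third (10489781 to 10489864), the interferon-inducible one, held 0.213 and 0.364. At this depth the use of a first exon was not detectable above the floor of 3 read pairs, and no order between libraries can be read from such numbers. The transcript that starts at the second exon was given 96.2% and 99.6% of Ciita by the authors' split.

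Ctsl, which encodes cathepsin L, the protease that cuts the invariant chain in cortical thymic epithelium, was the member with the widest difference and went against the chains. It stood at 91.9 TPM (88.5 to 95.4) under the wild-type label and 176 TPM (172 to 180.2) under the KO label, 1.92-fold (1.83 to 2.0) higher in the latter. This rests on 2789 and 6885 read pairs and on all 8 exons (chromosome 13, 64361890 to 64370520 in mm10), whose ratios ran from 1.85 in exon 3 to 2.0 in exon 8. An antisense gene of GENCODE that the deposited annotation does not hold, Gm47123, covers 977 of the 2311 bases of the last exon, and the kit does not mark strand, so reads there cannot be told apart. Outside that exon Ctsl stood at 223 and 424 TPM-equivalents, a log2 fold change of 0.92. The last exon was shallower, at 23.7 and 47.4 TPM-equivalents.

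No other protease of the endosome differed as much. Ctsd, which encodes cathepsin D, was the most abundant, at 436 and 441 TPM, followed by the cathepsin inhibitor Cst3 at 228 and 235 TPM. Ctsc, the protease that activates granule enzymes, was next after Ctsl in fold change, at 23.3 and 30.6 TPM, or 1.31-fold (1.23 to 1.41) higher. Ctss, which does the work of cathepsin L in B cells and dendritic cells, stood at 29.96 and 32.4 TPM. Without Ctsl, the log2 fold changes of the other 10 genes of this list lay between -0.25 and 0.38 with a median of 0.03, 7 above zero and 3 below.

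**Figure D3:**
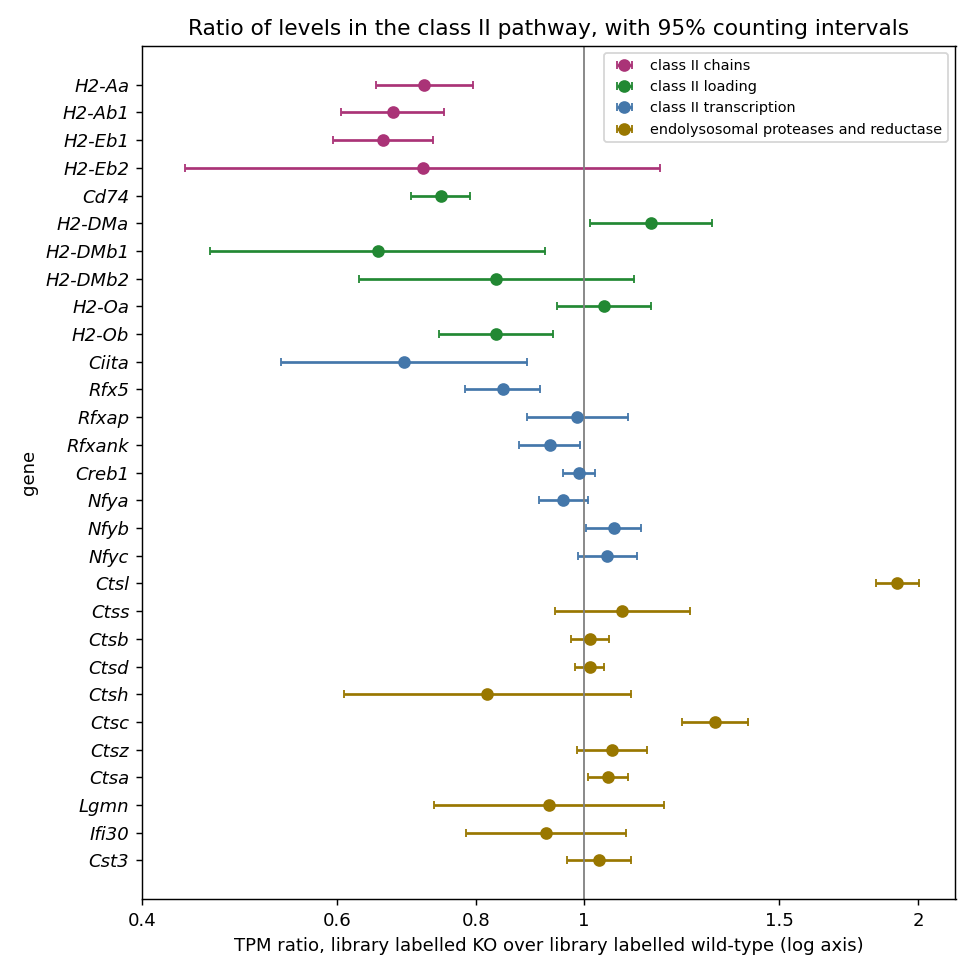
TPM ratio, library labelled KO over library labelled wild-type, on a log axis for each gene of the class II pathway with a ratio, coloured by list, with 95% counting intervals. The chains lie left of 1, most transcription factors and proteases lie near it, and Ctsl stands alone at 1.92.

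The class II genes of chromosome 17 lie among genes of other function, whose values are given here beside them; the interval was chosen after its values were seen. Between H2-Oa and H2-Eb2 the tables hold 14 genes, of which 9 are class II genes, and all 14 were measured. The 4 chain genes lie next to each other at one end and had log2 fold changes between -0.59 and -0.25. The loading genes of the interval overlapped with that range. H2-DMb1 was at -0.52, H2-Ob at -0.25 and H2-DMb2 at -0.24, while H2-Oa was at 0.06 and H2-DMa at 0.20. The other 5 genes of the interval, which serve MHC class I or chromatin, lay between -0.23 and 0.20. Among them the class I proteasome subunit Psmb8 stood at 519 and 598 TPM, its partner Psmb9 at 125 and 137 TPM and the peptide transporter gene Tap1 at 156 and 141 TPM. The bromodomain gene Brd2 stood at 313 and 266 TPM.

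**Figure D4:**
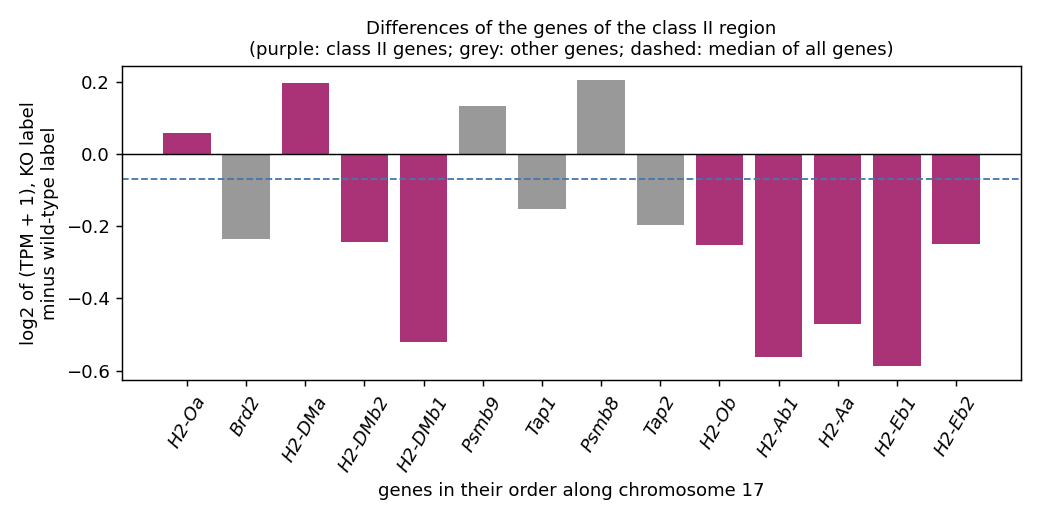
Log2 fold change on the log2(TPM + 1) scale for the 14 genes from H2-Oa to H2-Eb2 in their order on chromosome 17, with class II genes in purple, other genes in grey and the median of all genes, -0.07, as a dashed line. H2-Ab1, H2-Aa and H2-Eb1 form the lowest stretch, though H2-DMb1, at -0.52, lies below H2-Aa. H2-DMa and Psmb8 are the highest bars.

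Lyz2 and Cd79a, known from macrophages and from B cells, differed in opposite directions. Lyz2, which encodes the lysozyme of myeloid cells (chromosome 10, 117277541 to 117282272, minus strand), stood at 59.5 TPM (54.6 to 64.8) and 43.6 TPM (39.9 to 47.5), with all 4 exons lower in the library labelled KO (ratios of 0.542 to 0.795). Without its last exon the log2 fold change was -0.67 in place of -0.44. Other genes, above all its paralog Lyz1, hold 15.4% of its 50-base words, and their summed level was 59.97 and 43.6 TPM. Cd79a, a signalling chain of the B cell receptor (chromosome 7, 24897511 to 24902197), stood at 10.5 TPM (8.73 to 12.6) and 14.4 TPM (12.5 to 16.5), 1.37-fold (1.09 to 1.72) higher in the library labelled KO. Its exons differed among themselves, with ratios from 0.703 in exon 4 to 1.61 in exon 2, and only the intervals of exons 2 and 5 lay above 1.

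In order of TPM, the library labelled wild-type had Cd74, Ctsl, H2-Aa, H2-Ab1, Lyz2, H2-Eb1, H2-DMa, Cd79a and Ciita. The intervals of the neighbours Ctsl and H2-Aa overlapped there, as did those of Lyz2 and H2-Eb1. In the library labelled KO the order differed by Ctsl standing above Cd74. There H2-Ab1 overlapped with Lyz2, and H2-Eb1 with H2-DMa. The order depends on the last exon. Without it, depth scaled to TPM under the wild-type label was 223.7 for Cd74 and 223.5 for Ctsl. H2-Eb1, at 78.0 and 51.5 (wild-type and KO labels), then stood above H2-Ab1 (70.0 and 47.0) and Lyz2 (55.7 and 34.6).

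Markers of cells that carry class II in the thymus were present at low levels, and the medians of their lists did not share 1 sign. The B cell list of 16 genes summed to 92.8 and 103 TPM and held no gene at 0. Its highest genes were Cd79b (31.7 and 35.7 TPM), the other receptor signalling chain, and the coactivator Pou2af1 (17.5 and 19.1 TPM). Ms4a1, which encodes CD20, stood at 4.54 and 4.11 TPM. Of 14 measured B cell genes 10 lay above zero and 4 below, with a median of 0.16, against 38.5% above zero and -0.07 over all genes. Without Cd79a the median of the other 13 was 0.16 too. The ratio interval lay above 1 for 1 gene (Cd79a) and below 1 for 1 (Fcer2a). Over all genes, 16.3% had it above 1 and 35% below 1. Summed without Cd79a, the list had a KO to wild-type ratio of 1.07 (0.9998 to 1.15).

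The macrophage and monocyte list of 22 genes summed to 158 and 149 TPM, or 98.0 and 106 TPM without Lyz2. After Lyz2 its highest gene was Tyrobp, a signalling adaptor, at 26.2 and 30.05 TPM. The complement genes C1qa (4.11 and 5.41 TPM), C1qb (5.47 and 6.74 TPM) and C1qc (5.17 and 7.10 TPM) had ratios whose intervals included 1. Csf1r, the receptor for the macrophage growth factor, stood at 2.78 and 1.93 TPM. Of 15 measured genes, 5 had a ratio interval below 1 (Lyz2, Csf1r, Mpeg1, Cybb and Hmox1) and 1 had it above 1 (Fcer1g). Over all genes, 35% had it below 1 and 16.3% above 1. On the log2 scale 8 of the 15 macrophage and monocyte genes lay above zero and 7 below. Their median was 0.07, which became -0.33 without terminal exons, where that of all genes was -0.14.

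The dendritic cell list of 16 genes summed to 47.3 and 43.3 TPM. Irf8, a transcription factor of these cells, stood at 11.7 and 11.2 TPM, and the chemokine gene Ccl22 at 9.14 and 7.29 TPM. Itgax, which encodes CD11c, was level at 2.28 and 2.33 TPM. Flt3 stood at 1.66 and 1.04 TPM, Sirpa at 3.06 and 1.98 TPM and Cd209a at 2.53 and 1.06 TPM. Cd209a rested on 32.4 and 17.5 read pairs. Naaa stood at 6.00 and 8.46 TPM, 1.41-fold (1.13 to 1.77) higher in the library labelled KO. Of 12 measured genes, 4 had a ratio interval below 1 (Flt3, Sirpa, Cd209a and Fscn1) and 1 above 1 (Naaa). Over all genes those shares were 35% and 16.3%. Batf3 passed the rule of size as higher, listed at 0 and at 1.41 TPM (0.705 to 2.50), from 0 and 11.2 read pairs. Its level in the library labelled KO was 2.88 times the floor of 3 read pairs, 0.487 TPM, in the other library. The lower bound of 0.705 TPM lies nearer to that floor. Of 12 measured genes 9 lay below zero and 3 above, with a median of -0.24, against -0.07 and 61.5% below zero over all genes. That median was -0.061 among genes with at least 5 TPM, -0.10 with no filter and -0.48 without terminal exons, where all genes had -0.064, 0 and -0.14.

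Genes of thymic epithelium, in whose cortex Ctsl acts on the invariant chain, were partly at or near 0. Krt5, Krt8, Foxn1 and Pax1 were listed at 0 in both libraries, and Psmb11, the proteasome subunit of cortical epithelium, stood at 0.212 and 0.193 TPM. Prss16, its serine protease, stood at 0.265 and 0.558 TPM. The list of 17 genes summed to 35.04 and 37.5 TPM, led by Cldn4 (6.31 and 9.74 TPM), Ly75 (8.76 and 6.55 TPM), Epcam (6.87 and 8.35 TPM) and the chemokine gene Ccl25 (7.45 and 6.82 TPM). Of 6 measured genes 3 lay above zero and 3 below, with a median of 0.07 that was -0.02 with FPKM and -0.31 without terminal exons, where all genes had 0.03 and -0.14.

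Costimulation genes of antigen-presenting cells stood at low levels apart from Cd274, which encodes PD-L1 and was at 68.1 and 65.5 TPM. Pdcd1lg2, its relative, stood at 6.64 and 7.5 TPM and Cd86 at 1.41 TPM (0.958 to 2.001) and 0.901 TPM (0.586 to 1.32). Of 5 measured genes 2 lay above zero and 3 below, with a median of -0.06. The part of cells other than thymocytes in the levels of the 9 genes was not tested.

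**Figure D5:**
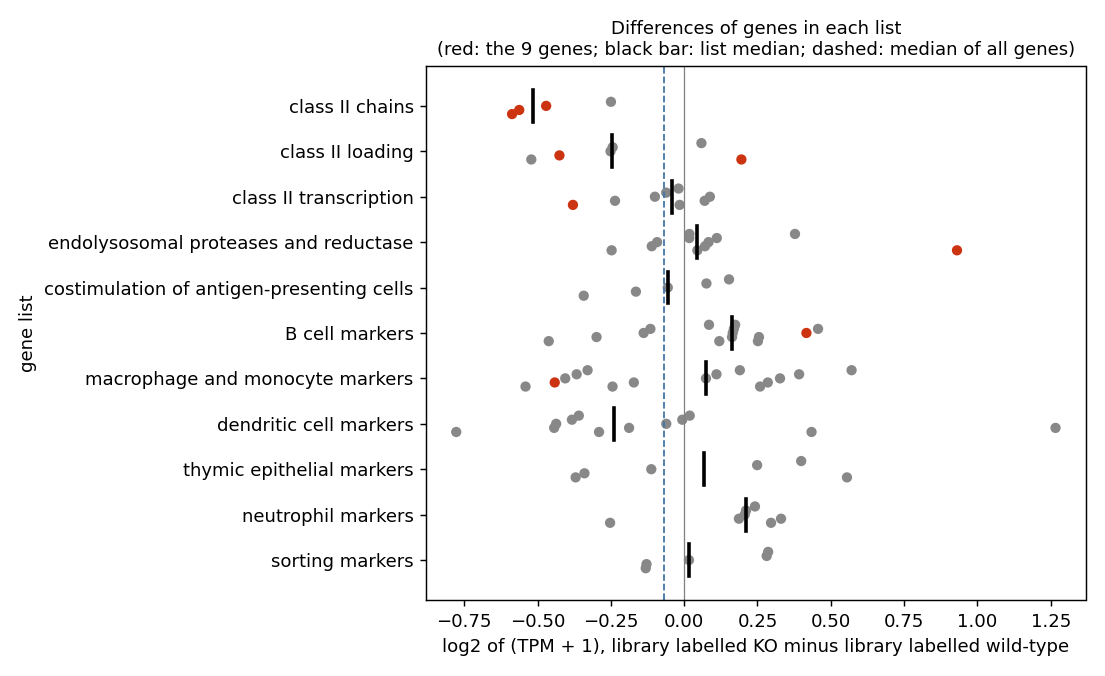
Log2 fold change on the log2(TPM + 1) scale of each measured gene, by list, with the 9 genes in red, other genes in grey, a black bar for the list median and a dashed line for the median of all genes, -0.07. The chain list has its median at -0.52, the dendritic cell list at -0.24 and the B cell list at 0.16, and Ctsl stands apart from the other proteases.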

How the data were processed

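Libraries were made with a TruSeq RNA kit from 1 ug of Trizol-extracted RNA, per the labels' protocols. The aligner was HISAT2 and the build mm10, per the submitters' processing notes; no HISAT2 version was to hand. Per the file headers, the authors ran StringTie 1.3.3b on RefSeq transcripts. The deposited tables give TPM (summing to 1000000 in each library), FPKM and coverage (average depth over a transcript, not scaled between libraries), from which depth was taken.

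Values of a gene ID at several loci were summed. Read pairs were estimated as covered bases divided by 202 (2 mates of 101 bases). In transcripts with few reads, 34.7% and 34.4% of covered-base totals were a multiple of it to within 2 bases, where chance gives 2.48%. Levels have exact Poisson intervals and ratios exact binomial (Clopper-Pearson) intervals at 95%. The floor for 0 was 3 read pairs in a library. Reads that are PCR copies are not independent, so only counting error is covered by the intervals and floors. Fold changes are log2((TPM + 1) of the library labelled KO / (TPM + 1) of the other), which understates low genes. Of the 24532 IDs, 24462 matched a symbol in RefSeq's gene table. The 13 gene lists held 142 names, of which 1 was not matched. The 9 genes and the lists were chosen with earlier results of these data known. Named genes were the 9, the sorting markers, the 2 highest of each list and those called, and others were named after their values were seen. The calling of genes by size was also run on simulated data, with no result quoted here. With 1 library per genotype, such a run cannot tell genotype from other differences between libraries. Alternatives were other pseudocounts, filters, FPKM, a rescaling by the median ratio and depth without the last exon. Work was done in Python 3.11.15 with scipy 1.17.1, pandas 2.3.3 and numpy 2.4.6, and figures with matplotlib 3.10.9.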

Additional observations from a re-analysis of the deposited data

How the results depend on the processing

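Each of the 9 genes kept its direction with pseudocounts of 0.1 and 5 TPM, with FPKM, with the median-ratio rescaling and without the terminal exon. The summed chains ranged from -0.55 to -0.43 on the log2 scale (-0.43 with FPKM), Ctsl from 0.90 to 1.02 and H2-DMa from 0.17 to 0.28. FPKM moved the median of all genes from -0.07 to 0.03 and called 1 of the 9 genes higher (Ctsl). The added threshold of 0.5 called 1 higher and 2 lower. All genes called higher and lower numbered 139 and 305 with a pseudocount of 0.1, 21 and 34 with 5, 51 and 50 with FPKM, 46 and 83 with at least 5 TPM, and 405 and 772 at the threshold of 0.5. The median of the class II transcription list was 0.056 with FPKM and -0.18 without terminal exons. That of the sorting markers was 0.12 with FPKM, 0.080 with the rescaling and -0.028 without terminal exons. The cause was not tested. No paired analysis was possible because each genotype has 1 library. Depth limits Ciita, whose first exons hold under 3 read pairs each.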

Other observations

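Genes known from other blood lineages also had RNA at low levels, and the cells it came from were not tested. The neutrophil list of 10 genes summed to 55.0 and 56.1 TPM under the wild-type and KO labels, led by the calprotectin chains S100a9 (24.7 and 20.6 TPM) and S100a8 (12.01 and 14.4 TPM). Of 7 measured neutrophil genes, 6 lay above zero and 1 below, with a median log2 fold change of 0.21. Over all genes, 38.5% lay above zero and the median was -0.07. The ratio interval of each of the 7 genes included 1. For the summed list, the ratio of the KO label to the wild-type label was 1.02 (0.887 to 1.17). Erythroid genes were near 0, with the globin gene Hba-a2 at 0.510 and 1.91 TPM from 2.49 and 11.99 read pairs and the haem synthesis gene Alas2 at 0.846 and 0.609 TPM.

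Fibroblast and endothelial genes were at or near 0 apart from Pecam1, which thymocytes are known to carry and which stood at 120 and 104 TPM. The other 11 genes of that list, among them Col1a2, Col3a1, Dcn and Pdgfra, each listed at 0 in both libraries, summed to 1.496 and 1.54 TPM, with the pericyte receptor gene Pdgfrb highest at 0.760 and 0.692 TPM.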
